A study of Mus musculus with 12 samples.

Results

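The 48 genes described here build, check and take apart the mitotic spindle: mitotic kinesins, centromere and kinetochore proteins, checkpoint and mitotic kinases, cytokinesis proteins, and the cyclins and ubiquitin machinery that drive cells into and out of mitosis. They were taken by gene symbol from a list made for these roles, and the rule goes by name, not by measured values. The list itself was chosen with earlier results of these data known. All 48 were found among the 55491 entries of the count table, and all 48 passed the filter on low counts, which left 17909 genes for the tests. They were measured by RNA sequencing of polyA RNA from whole lungs, all 5 lobes without large airway and trachea, of male wild-type C57BL/6J mice aged 10 weeks per the labels. Every mouse had received bleomycin, a DNA-damaging drug that injures and scars the lung, into the airway (0.0125 U per mouse, about 0.5 U/kg). The NP lungs (4 mice) were taken at day 21, after 5 daily intravenous doses of 2 mg of nanoparticles from day 14 to day 18. The particles had a core of poly(lactide-co-glycolide) (PLG), a coat of the surfactant PEMA and a mean diameter of 609 ± 15.3 nm. The vehicle lungs (4 mice) were taken at day 21 after 5 intravenous doses of saline from day 14 to day 18. The day 14 lungs (4 mice) were taken before any treatment. Time and the injections therefore cannot be told apart in any difference between day 21 and day 14. No uninjured lungs were among the samples used here, so every difference is between injured lungs.

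A cell that divides builds a spindle of microtubules, attaches each pair of sister chromatids to it through kinetochores, waits at a checkpoint until all are attached, and then cuts cohesin, separates the sisters and splits. Most of these genes are transcribed late in the cell cycle under B-Myb and FOXM1 and are held silent in resting cells by the DREAM complex, so that their RNA is commonly read as a measure of dividing cells in a tissue. In the healthy adult lung few cells divide, and after bleomycin injury epithelial, endothelial, mesenchymal and macrophage populations are known to enter division.

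The libraries held 24138582 to 28910459 counts in NP lungs, 28001006 to 36208498 in vehicle lungs and 25706260 to 42714693 at day 14. Lung identity was clear in all of them, with mean levels of 35850 TPM for the surfactant gene Sftpc, 92250 TPM for the club cell gene Scgb1a1 and 2322 TPM for the alveolar type 1 gene Ager. The library of NP replicate 3 stood apart. Its neutrophil markers (9 genes) summed to 5810 TPM, against at most 485 TPM in the other NP lungs, 280 to 608 TPM in vehicle lungs and 176 to 406 TPM at day 14. NP replicate 2 had the highest erythroid markers (9 genes), at 14370 TPM, against 820 to 5617 TPM in the vehicle and day 14 lungs. NP replicate 3 was also the lowest of the 12 libraries for 43 of the 48 mitosis and spindle genes. Counts of called genes and medians in NP lungs, and the list sums that it moves, are therefore given with and without it where they differ, and single genes with all 4 NP lungs. The part of the neutrophil signal in its low mitotic levels was not tested.

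Mitosis and spindle genes were lower at day 21 than at day 14 with either treatment. In NP lungs 47 of the 48 fell against day 14 and 0 rose, where 8.56% of all genes tested fell and 6.16% rose. In vehicle lungs 47 fell and 0 rose, where 6.51% of all genes tested fell and 3.79% rose. The same 47 genes fell in both comparisons, which share the day 14 lungs, and the one left was Pttg1, the gene of securin. The calls are edgeR's quasi-likelihood test with a Benjamini-Hochberg adjusted p under 0.05 over all genes tested. The median log2 fold change of the 48 was −1.39 in NP lungs, a fold of 0.382, and −1.16 in vehicle lungs, a fold of 0.449, beside medians of 0.01 and 0.00 over all genes tested. Single genes ranged from −1.81 (Pbk) to 0.29 (Pttg1) in NP lungs and from −1.46 (Pimreg) to 0.26 (Pttg1) in vehicle lungs. In CPM, counts scaled to library size, the 4 NP lungs lay wholly below the 4 day 14 lungs for 47 of 48 genes, where 10.6% of all genes tested did. The vehicle lungs did for 47 of 48, where 10.7% did. Wholly above day 14 lay 0 of the 48 in either treatment, where 8.47% of all genes did in NP lungs and 7.2% in vehicle lungs. With NP replicate 3 left out, the NP lungs again fell against day 14 in 47 genes, with a median of −1.18, and Pttg1 passed as higher (0.32, adjusted p = 0.0492). Leaving it out moved the log2 fold change of each of the 48 upward, by 0.02 to 0.29 with a median of 0.20, and the 47 then ran from −1.58 to −0.55. In RNA of whole lungs, fewer dividing cells and less RNA per dividing cell cannot be told apart.

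**Figure D1:**
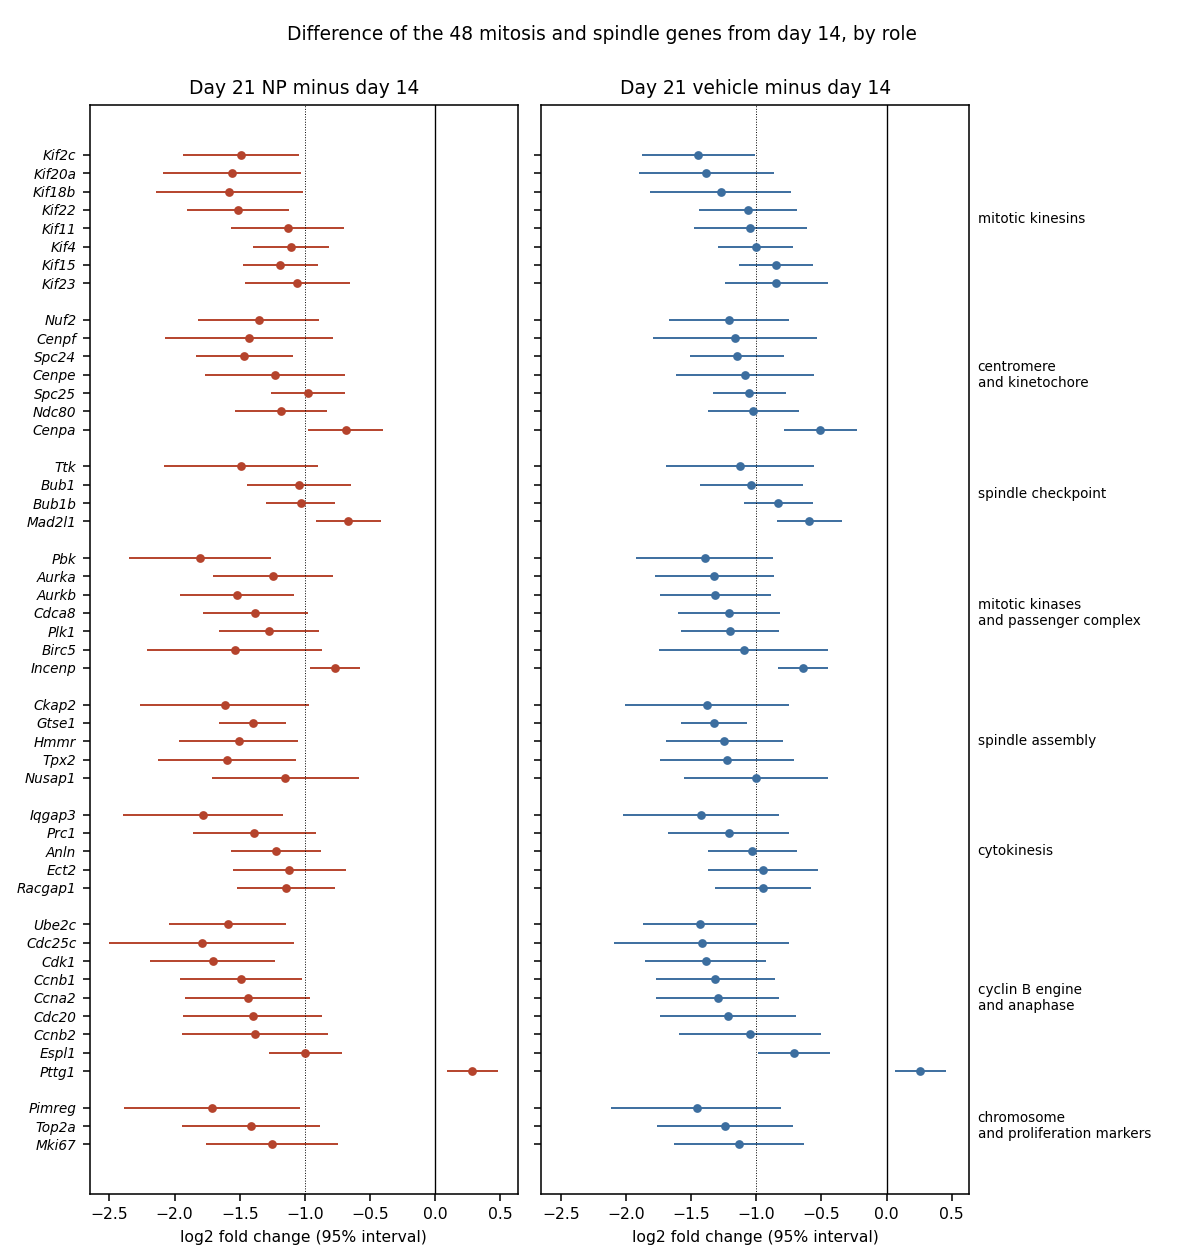
Log2 fold change from day 14 of the 48 mitosis and spindle genes, grouped by role, in day 21 NP lungs (left) and day 21 vehicle lungs (right), from edgeR's quasi-likelihood fit; points are estimates, bars 95% confidence intervals, the solid line is 0 and the dotted line −1. All genes but Pttg1 lie left of 0 with their whole interval in both panels, with medians of −1.39 (NP) and −1.16 (vehicle).

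The size of the fall can be seen as a summed level. The 48 genes together held 332, 318, 206 and 295 TPM in NP lungs, 269, 378, 311 and 296 TPM in vehicle lungs, and 588, 591, 580.2 and 541 TPM at day 14. All 8 day 21 lungs were below all 4 day 14 lungs, and the NP and vehicle lungs overlapped. The group means were 288 ± 56.7 TPM in NP lungs, 314 ± 46.5 TPM in vehicle lungs and 575 ± 23.2 TPM at day 14 (SD, n = 4 each). Pttg1 alone made up 22.9 to 34.5% of the sum in NP lungs, 17.7 to 30.7% in vehicle lungs and 9.37 to 11.4% at day 14. Without it the sums were 254, 245, 135 and 217 TPM in NP lungs, 186, 311, 237 and 229 TPM in vehicle lungs, and 532, 524, 526 and 482 TPM at day 14. The day 14 lungs lay close together, while the day 21 lungs were spread more widely.

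The same lungs were low or high for most of the genes. Within the NP lungs, replicate 3 was the lowest for 46 of the 48 genes, at a median of 51.0% of the mean of the other 3 (range 28.0 to 97.4%). Within the vehicle lungs, replicate 1 was the lowest for 43 genes and replicate 2 the highest for 45. The day 14 lungs were more mixed, with the highest place taken by replicate 1 for 14 genes, by replicate 2 for 17, by replicate 3 for 14 and by replicate 4 for 3. The median coefficient of variation of a gene's TPM within a group was 31.8% in NP lungs (11.5% without replicate 3), 24.3% in vehicle lungs and 9.78% at day 14. A score was made by subtracting from the log2 CPM of each gene its own 12-lung mean and averaging the 48 differences. It was −0.25, −0.24, −1.2 and −0.39 in NP lungs, −0.67, 0.08, −0.32 and −0.30 in vehicle lungs, and 0.87, 0.84, 0.85 and 0.73 at day 14. Vehicle replicate 2 was thus the highest day 21 lung and NP replicate 3 the lowest.

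**Figure D2:**
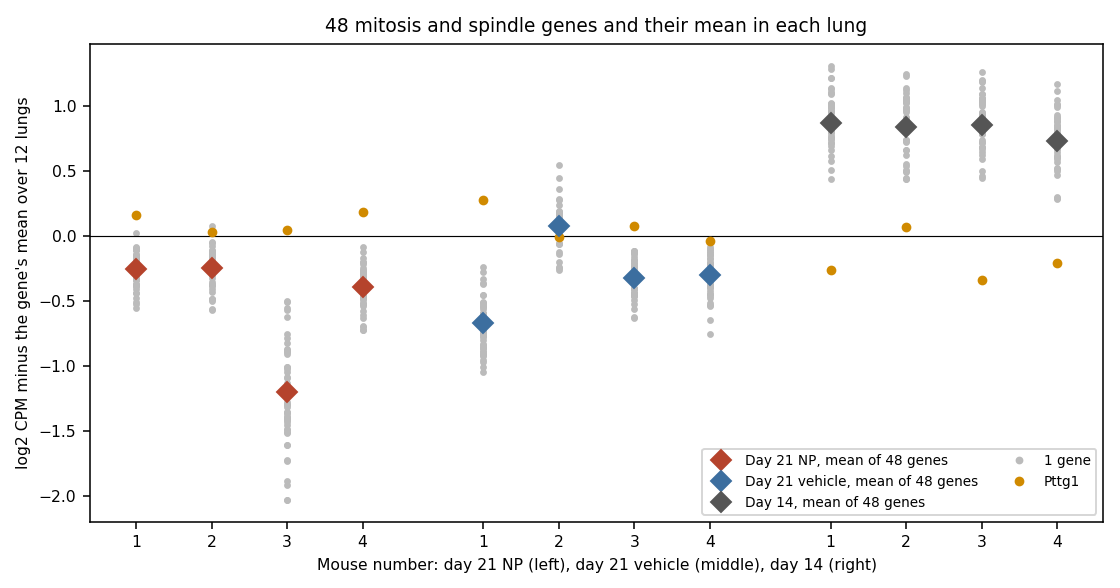
Log2 CPM of each of the 48 genes (grey points; Pttg1 orange) in each of the 12 lungs, minus that gene's mean over the 12 lungs, with the mean of the 48 genes in that lung as a diamond; lungs are grouped as day 21 NP (left), day 21 vehicle (middle) and day 14 (right) by mouse number. The day 14 means lie at 0.73 to 0.87 and NP replicate 3 lies at −1.2.

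Many of the 48 genes have the same short motifs near their start sites, which the choice of genes did not use. RefSeq windows (GRCm38.p6) from 250 bases before to 50 bases after the start were at hand for 39 of them. The cell cycle homology region (CHR), read here as TTTGAA or TTCGAA on either strand, is the element through which DREAM and B-Myb complexes bind late cell cycle genes. It was found in 31 of the 39 (79.5%), against 21.7% of 27025 genes with a window. CCAAT boxes, bound by NF-Y, were found on either strand in 29 (74.4%), against 41.1% of all genes. Both motifs stood in the windows of 26 genes (66.7%), against 8.61% of all genes, and 20 (51.3%) had more than 1 CCAAT box, against 13.3%. An E2F-type core, read as TTGGCG or TTCGCG on either strand and able to overlap a CCAAT box read on the other strand (ATTGG), was found in 9 (23.1%), against 12.1% of all genes. Among the 12637 tested genes with a window these shares were 17.1% for the CHR, 42.1% for CCAAT, 6.92% for both and 19.5% for the E2F-type core. A match describes letters in a window and shows no binding.

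The windows of the gene of highest level in 6 of the roles are shown, to set the windows that hold the motifs beside those that hold none of them. Capitals mark the CHR, which reads TTTGAA on one strand and then TTCAAA on the other, or reads TTCGAA on both strands. Capitals also mark CCAAT boxes, with ATTGG for a box on the other strand, and each window is written in the direction of transcription. Top2a, which makes topoisomerase II alpha, has 4 CHR matches and 6 CCAAT boxes in the window at chr11:99024140-99024439 (minus strand).
Top2a: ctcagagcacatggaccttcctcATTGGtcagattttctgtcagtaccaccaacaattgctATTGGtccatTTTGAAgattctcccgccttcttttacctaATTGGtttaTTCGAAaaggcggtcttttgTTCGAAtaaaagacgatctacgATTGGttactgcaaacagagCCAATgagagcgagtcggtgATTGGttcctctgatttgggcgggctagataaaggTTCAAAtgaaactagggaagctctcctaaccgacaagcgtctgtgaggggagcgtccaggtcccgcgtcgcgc
Kif23, a kinesin of the central spindle, has 1 of each at chr9:61946750-61947049 (minus strand), the CHR starting 2 bases after the RefSeq start.
Kif23: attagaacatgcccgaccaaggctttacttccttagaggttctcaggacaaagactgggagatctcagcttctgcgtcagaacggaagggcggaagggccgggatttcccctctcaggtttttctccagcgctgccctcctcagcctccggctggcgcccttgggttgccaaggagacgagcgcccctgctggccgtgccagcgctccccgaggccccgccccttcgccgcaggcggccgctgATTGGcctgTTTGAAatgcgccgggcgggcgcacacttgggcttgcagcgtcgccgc
Prc1, which bundles the microtubules of the central spindle, has 1 of each at chr7:80294201-80294500 (plus strand), the first of its 2 RefSeq windows.
Prc1: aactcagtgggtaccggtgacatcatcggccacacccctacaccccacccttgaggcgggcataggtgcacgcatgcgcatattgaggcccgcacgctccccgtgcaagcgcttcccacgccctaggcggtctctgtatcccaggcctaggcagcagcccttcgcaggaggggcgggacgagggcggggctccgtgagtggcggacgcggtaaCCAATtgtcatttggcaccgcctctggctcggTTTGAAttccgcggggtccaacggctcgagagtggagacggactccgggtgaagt
Cenpa, the histone variant of centromeres, has 1 CHR and 2 CCAAT boxes at chr5:30666636-30666935 (plus strand).
Cenpa: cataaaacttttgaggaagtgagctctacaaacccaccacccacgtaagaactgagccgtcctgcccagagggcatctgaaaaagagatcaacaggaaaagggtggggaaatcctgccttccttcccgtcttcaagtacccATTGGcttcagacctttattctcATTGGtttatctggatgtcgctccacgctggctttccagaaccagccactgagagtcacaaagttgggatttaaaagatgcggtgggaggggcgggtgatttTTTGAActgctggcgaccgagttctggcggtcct
Mad2l1, the checkpoint protein Mad2, has none of these letters at chr6:66534971-66535270 (plus strand). This RefSeq window ends before the GENCODE start of the gene at 66535390.
Mad2l1: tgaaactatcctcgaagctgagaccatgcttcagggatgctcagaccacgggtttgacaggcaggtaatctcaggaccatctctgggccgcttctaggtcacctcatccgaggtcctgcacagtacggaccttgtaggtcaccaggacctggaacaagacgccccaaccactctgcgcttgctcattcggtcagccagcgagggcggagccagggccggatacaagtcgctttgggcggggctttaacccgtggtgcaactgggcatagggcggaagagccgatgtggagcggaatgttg
Pttg1 has none of them at chr11:43425932-43426231 (minus strand). The GENCODE start of Pttg1 is at 43426251, so this RefSeq window holds only bases downstream of that start.
Pttg1: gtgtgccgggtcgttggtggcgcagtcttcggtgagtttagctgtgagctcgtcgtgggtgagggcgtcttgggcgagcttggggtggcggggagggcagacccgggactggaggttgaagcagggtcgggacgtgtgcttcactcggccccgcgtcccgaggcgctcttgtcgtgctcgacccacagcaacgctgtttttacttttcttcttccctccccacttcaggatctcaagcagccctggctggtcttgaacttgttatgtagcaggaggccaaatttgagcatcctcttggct
The genes printed with motifs fell, Cenpa less than the other 3. Mad2l1 has no match in its window and fell too. The printed windows of Mad2l1 and Pttg1 do not hold the GENCODE start, while those of Top2a, Kif23, Prc1 and Cenpa do. The part of these motifs in the fall was not tested. Birc5, Nusap1, Mad2l1 and Pttg1 were the 4 genes with a window that held none of the 3 motifs.

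Mitotic kinesins are motor proteins that slide, shorten or carry spindle microtubules. All 8 fell in both comparisons, with a median log2 fold change of −1.34 in NP lungs (−1.21 without replicate 3) and −1.05 in vehicle lungs. Kif23, which forms the centralspindlin complex with Racgap1 and had the highest level of the 8, had 9.98, 7.41, 7.2 and 10.7 TPM in NP lungs, 8.46, 12.7, 12.3 and 8.65 TPM in vehicle lungs, and 21.2, 13, 19.1 and 17.3 TPM at day 14. The day 21 groups lay below every day 14 lung and overlapped each other. Its log2 fold change (± SE) was −1.06 ± 0.19 in NP lungs and −0.85 ± 0.18 in vehicle lungs (adjusted p = 0.0036 and 0.0136). Its call in vehicle lungs was lost without vehicle replicate 1 (adjusted p = 0.0528). Kif22, a chromokinesin that pushes chromosome arms away from the poles, had 2.99, 3.24, 2.23 and 3.61 TPM in NP lungs, 4.45, 5.18, 4.62 and 3.47 TPM in vehicle lungs, and 8.62, 9.74, 9.62 and 8.29 TPM at day 14. Both day 21 groups were well below day 14. Against day 14 its log2 fold change was −1.52 ± 0.18 in NP lungs and −1.06 ± 0.18 in vehicle lungs (adjusted p = 0.000503 and 0.00355). Kif4, another chromokinesin, which acts in condensation and at the spindle midzone, had 1.61, 1.73, 1.4 and 1.43 TPM in NP lungs, 1.58, 2.04, 1.43 and 1.61 TPM in vehicle lungs, and 3.16, 3.25, 3.01 and 3.91 TPM at day 14. Every day 14 lung was above every day 21 lung, and part of its exons overlaps Pdzd11 on the other strand, as given among the counting limits. The log2 fold change of Kif4 from day 14 was −1.11 in NP lungs and −1.0 in vehicle lungs (SE 0.14 and 0.13; adjusted p = 0.000517 and 0.00172).

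Kif15, which helps to hold the poles apart, had 1.99, 2.7, 3.45 and 4.94 TPM in NP lungs, 4.62, 5.61, 3.12 and 3.31 TPM in vehicle lungs, and 6.19, 6.81, 5.26 and 4.66 TPM at day 14. In TPM the groups overlapped, with NP replicate 4 and vehicle replicate 2 above the lowest day 14 lung. In CPM, which uses no transcript length, Kif15 stood at 3.41, 4.2, 2.89 and 3.73 CPM in NP lungs, 3.88, 5.42, 4.56 and 4.1 CPM in vehicle lungs, and 8.91, 7.8, 8.05 and 7.61 CPM at day 14, and both day 21 groups lay below day 14. On counts its log2 fold change was −1.19 ± 0.14 in NP lungs and −0.85 ± 0.13 in vehicle lungs (adjusted p = 0.000503 and 0.00289). With limma on log2(TPM + 1) it was −0.69 in NP lungs and −0.40 in vehicle lungs, and did not pass (adjusted p = 0.0620 and 0.289). TPM divides by a transcript length that RSEM estimated in each library. The ratio of TPM to CPM varied over the 12 lungs with a median coefficient of variation of 6.98% for the 48 genes. It was above 15% for 6 of them, Cdc25c (106%), Espl1 (40.7%), Kif15 (30.5%), Kif23 (20.5%), Cenpf (20%) and Pbk (16.9%). The calls rest on counts and do not use that length. The remaining kinesins were Kif2c, which takes microtubules apart, Kif11, which pushes the poles apart, Kif20a, which brings Aurora B to the midzone, and Kif18b. Their log2 fold changes ran from −1.58 to −1.13 in NP lungs and from −1.45 to −1.05 in vehicle lungs.

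Kinetochore genes fell in 7 of 7 in both comparisons, with a median of −1.23 in NP lungs (−1.05 without replicate 3) and −1.09 in vehicle lungs. Cenpa, the histone H3 variant that marks centromeres, had 15.6, 14.3, 8.83 and 13.4 TPM in NP lungs, 12.8, 18.1, 15 and 12.7 TPM in vehicle lungs, and 22.8, 23.1, 23.4 and 20.4 TPM at day 14. Every day 21 lung was below every day 14 lung, and NP replicate 3 was the lowest. It fell by 0.69 ± 0.13 in NP lungs and by 0.51 ± 0.13 in vehicle lungs (log2, SE; adjusted p = 0.00523 and 0.0283). The call in vehicle lungs was lost in 6 of the 12 fits that left out a library: without vehicle replicate 1, 3 or 4 (adjusted p = 0.0964, 0.0729 and 0.0653) and without day 14 replicate 1, 2 or 3 (adjusted p = 0.0665, 0.0524 and 0.0797). Spc24 and Spc25 join Ndc80 and Nuf2 in the complex that grips the ends of microtubules. Spc25 had 6.88, 6.14, 4.53 and 6.11 TPM in NP lungs, 4.35, 6.58, 5.73 and 5.87 TPM in vehicle lungs, and 12.2, 12.2, 11.8 and 11.3 TPM at day 14. The day 14 lungs were nearly level, and the day 21 groups lay far below day 14. Spc25 fell by 0.97 (SE 0.13) in NP lungs and by 1.05 (SE 0.13) in vehicle lungs on the log2 scale (adjusted p = 0.000875 and 0.00151). Spc24 had 6.39, 5.23, 3.29 and 3.28 TPM in NP lungs, 4.66, 5.15, 5.66 and 6.4 TPM in vehicle lungs, and 14.1, 11.5, 11.3 and 9.43 TPM at day 14. The 2 lowest lungs were NP replicates 3 and 4. Against day 14 its log2 fold change was −1.46 ± 0.17 in NP lungs and −1.15 ± 0.17 in vehicle lungs (adjusted p = 0.000503 and 0.00234). Ndc80 and Nuf2 changed by −1.18 and −1.36 in NP lungs and by −1.02 and −1.21 in vehicle lungs. Cenpe and Cenpf, large proteins of the outer kinetochore, fell by 1.23 and 1.43 in NP lungs and by 1.09 and 1.16 in vehicle lungs. Of the 12 fits that left out a library, the vehicle call held in 10 for Cenpe and 6 for Cenpf (highest adjusted p = 0.0597 and 0.0849).

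The spindle checkpoint holds anaphase until every kinetochore is attached. All 4 of its genes fell in both comparisons, by a median of −1.04 in NP lungs (−0.91 without replicate 3) and −0.93 in vehicle lungs, the smallest median fall of the 8 roles. Mad2l1, which binds and blocks Cdc20, had 9.96, 10.6, 6.93 and 9.08 TPM in NP lungs, 7.68, 11.1, 8.66 and 9.63 TPM in vehicle lungs, and 14.7, 15.4, 14.2 and 13.5 TPM at day 14. Day 21 lungs were below day 14, and NP replicate 3 was the lowest. The log2 fold change of Mad2l1 from day 14 was −0.67 in NP lungs and −0.59 in vehicle lungs (SE 0.12 and 0.12; adjusted p = 0.00333 and 0.00812). Bub1b, another inhibitor of Cdc20, had 5.99, 6.35, 4.8 and 4.23 TPM in NP lungs, 6.2, 6.91, 5.62 and 5.64 TPM in vehicle lungs, and 13.2, 10.8, 11.9 and 9.2 TPM at day 14. In TPM the vehicle lungs were within a narrow range, and the day 14 lungs were more spread. In CPM the vehicle range was not narrow, as Bub1b ran from 8.81 to 13.5 CPM there and from 18.7 to 23.1 CPM at day 14. It fell by 1.03 ± 0.12 in NP lungs and by 0.83 ± 0.12 in vehicle lungs (log2, SE; adjusted p = 0.000503 and 0.00246). Of the checkpoint kinases, Bub1 changed by −1.05 in NP lungs and −1.04 in vehicle lungs, and Ttk by −1.49 in NP lungs and −1.13 in vehicle lungs. The vehicle call of Ttk held in 9 of the 12 fits that left out a library (highest adjusted p = 0.0659).

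Mitotic kinases and the chromosomal passenger complex include Aurora B with its partners Incenp, survivin (Birc5) and borealin (Cdca8), which correct faulty attachments and later act in cytokinesis. All 7 genes of this role fell in both comparisons, with a median of −1.38 in NP lungs (−1.22 without replicate 3) and −1.21 in vehicle lungs. Incenp, the scaffold, had 9.48, 9.18, 8.55 and 8.8 TPM in NP lungs, 8.65, 10.3, 11 and 9.1 TPM in vehicle lungs, and 14.3, 19.6, 16.6 and 13.6 TPM at day 14. In TPM the NP lungs were almost level with each other, NP replicate 3 included. In CPM NP replicate 3 was lower, at 12.2 CPM against 14.3 to 15.6 CPM in the other NP lungs. Incenp fell by 0.77 (SE 0.09) in NP lungs and by 0.64 (SE 0.09) in vehicle lungs on the log2 scale (adjusted p = 0.000503 and 0.00203). Birc5 had 6.97, 8.13, 2.12 and 6.15 TPM in NP lungs, 5.94, 11.2, 6.67 and 7.35 TPM in vehicle lungs, and 18.7, 18.6, 16.4 and 14.3 TPM at day 14. NP replicate 3 was far below the other NP lungs, and vehicle replicate 2 was the highest day 21 lung. Against day 14 its log2 fold change was −1.54 ± 0.31 in NP lungs and −1.1 ± 0.30 in vehicle lungs (adjusted p = 0.00734 and 0.0366). The call in vehicle lungs held in 5 of the 12 fits that left out a library. It was lost without NP replicate 1 (adjusted p = 0.0502), without vehicle replicate 1, 3 or 4 (0.115, 0.105 and 0.0759) and without day 14 replicate 1, 2 or 3 (0.0927, 0.0709 and 0.0865), and also with limma on log2(TPM + 1) (adjusted p = 0.0588). Pbk, a kinase active in mitosis, had 7.47, 4.27, 1.71 and 3.68 TPM in NP lungs, 3.48, 6.22, 4.07 and 5.74 TPM in vehicle lungs, and 16.9, 11.2, 13.1 and 9.82 TPM at day 14. Its fall in NP lungs was the largest of the 48. The log2 fold change of Pbk from day 14 was −1.81 in NP lungs and −1.4 in vehicle lungs (SE 0.25 and 0.24; adjusted p = 0.00116 and 0.00523). Aurkb, Aurka, Plk1 and Cdca8 fell by 1.24 to 1.52 in NP lungs and by 1.2 to 1.32 in vehicle lungs.

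Spindle assembly genes fell in 5 of 5 in both comparisons, with a median of −1.51 in NP lungs (−1.34 without replicate 3) and −1.25 in vehicle lungs. Tpx2, which activates Aurora A and seeds microtubules near chromosomes, had 4.92, 3.45, 1.42 and 3.35 TPM in NP lungs, 4.0, 5.39, 3.74 and 3.56 TPM in vehicle lungs, and 9.0, 9.8, 10.1 and 8.89 TPM at day 14. NP replicate 3 was far below the other day 21 lungs. It fell by 1.6 ± 0.24 in NP lungs and by 1.23 ± 0.24 in vehicle lungs (log2, SE; adjusted p = 0.00217 and 0.00954). Ckap2, a microtubule-associated protein of the spindle, had 3.7, 4.72, 1.43 and 4.93 TPM in NP lungs, 3.19, 6.85, 4.14 and 3.18 TPM in vehicle lungs, and 11.8, 12.2, 11.7 and 10.6 TPM at day 14. Its day 14 lungs lay close together at more than any day 21 lung, and its day 21 lungs were widely spread. Ckap2 fell by 1.62 (SE 0.30) in NP lungs and by 1.38 (SE 0.29) in vehicle lungs on the log2 scale (adjusted p = 0.00501 and 0.0133). Gtse1, which steadies microtubules by holding back Kif2c, had 1.86, 1.68, 1.73 and 1.87 TPM in NP lungs, 1.73, 2.1, 1.97 and 1.75 TPM in vehicle lungs, and 4.13, 4.52, 5.61 and 4.68 TPM at day 14. NP replicate 3 was level with the other NP lungs, above replicate 2. Against day 14 its log2 fold change was −1.4 ± 0.12 in NP lungs and −1.32 ± 0.12 in vehicle lungs (adjusted p = 0.000214 and 0.000348). These were the smallest p-values among the 48 genes. Hmmr and Nusap1 changed by −1.51 and −1.15 in NP lungs and by −1.25 and −1.0 in vehicle lungs. The vehicle call of Nusap1 held in 7 of the 12 fits that left out a library (highest adjusted p = 0.0942).

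Cytokinesis genes fell in 5 of 5 in both comparisons, with a median of −1.22 in NP lungs (−1.09 without replicate 3) and −1.03 in vehicle lungs. Prc1 had 9.86, 10.4, 4.95 and 7.29 TPM in NP lungs, 7.39, 12.3, 8.74 and 8.3 TPM in vehicle lungs, and 21.2, 16.5, 20.9 and 19.9 TPM at day 14. The day 21 lungs were all below day 14. The log2 fold change of Prc1 from day 14 was −1.39 in NP lungs and −1.21 in vehicle lungs (SE 0.22 and 0.21; adjusted p = 0.00247 and 0.00641). Anln, the anillin scaffold of the contractile ring, had 6.3, 6.13, 3.74 and 5.09 TPM in NP lungs, 4.66, 8.61, 5.9 and 5.13 TPM in vehicle lungs, and 10.9, 11.4, 13.7 and 13 TPM at day 14. The highest day 21 lung was vehicle replicate 2. It fell by 1.22 ± 0.16 in NP lungs and by 1.03 ± 0.16 in vehicle lungs (log2, SE; adjusted p = 0.000875 and 0.0031). Racgap1, the partner of Kif23, had 8.41, 8.49, 4.84 and 7.95 TPM in NP lungs, 6.32, 9.2, 7.63 and 6.74 TPM in vehicle lungs, and 15.8, 14.2, 15.7 and 14.6 TPM at day 14. NP replicates 1, 2 and 4 were nearly level, and replicate 3 was far below them. Racgap1 fell by 1.14 (SE 0.17) in NP lungs and by 0.95 (SE 0.17) in vehicle lungs on the log2 scale (adjusted p = 0.00175 and 0.00609). Iqgap3, a scaffold protein of dividing cells, had 2.21, 1.94, 0.76 and 1.61 TPM in NP lungs, 1.41, 3.0, 2.03 and 1.78 TPM in vehicle lungs, and 5.99, 5.36, 5.63 and 5.62 TPM at day 14. The day 14 lungs were nearly level with each other. Against day 14 its log2 fold change was −1.78 ± 0.28 in NP lungs and −1.42 ± 0.27 in vehicle lungs (adjusted p = 0.00265 and 0.00953). Ect2, which activates RhoA at the cell equator, changed by −1.12 in NP lungs and −0.95 in vehicle lungs.

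The cyclin B engine and the anaphase machinery held the highest level and the one gene that did not fall. Here 8 of 9 genes fell in both comparisons, with a median of −1.44 in NP lungs (−1.21 without replicate 3) and −1.30 in vehicle lungs. Cdk1, the kinase that drives entry into mitosis, had 15.4, 12.8, 6.07 and 12.5 TPM in NP lungs, 6.59, 20.8, 11.2 and 14.3 TPM in vehicle lungs, and 42.2, 36.8, 39.4 and 28.5 TPM at day 14. Vehicle replicate 2 was the highest day 21 lung, and NP replicate 3 and vehicle replicate 1 were the lowest. The log2 fold change of Cdk1 from day 14 was −1.71 in NP lungs and −1.39 in vehicle lungs (SE 0.22 and 0.22; adjusted p = 0.000875 and 0.00325). Ube2c, which hands ubiquitin to the anaphase-promoting complex, had 9.49, 10, 4.75 and 9.42 TPM in NP lungs, 6.58, 12.1, 9.61 and 9.07 TPM in vehicle lungs, and 24.2, 28.3, 23.8 and 24 TPM at day 14. NP replicate 3 and vehicle replicate 1 were the lowest lungs, and day 14 replicate 2 was the highest. It fell by 1.59 ± 0.21 in NP lungs and by 1.43 ± 0.20 in vehicle lungs (log2, SE; adjusted p = 0.000784 and 0.00232). Ccnb1, Ccnb2 and Ccna2, the cyclins, and Cdc20, which activates the anaphase-promoting complex, fell by 1.39 to 1.49 in NP lungs and by 1.05 to 1.32 in vehicle lungs. Cdc25c, the phosphatase that releases Cdk1, fell by 1.79 in NP lungs and 1.42 in vehicle lungs on 7 to 90 counts per library. Of the 12 fits that left out a library, the vehicle call held in 8 for Ccnb2 and 11 for Cdc25c (highest adjusted p = 0.0648 and 0.0527).

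Espl1 and Pttg1 are partners: separase (Espl1) cuts cohesin at anaphase, and securin (Pttg1) holds it inactive until it is degraded. Espl1 had 3.15, 2.8, 1.78 and 1.83 TPM in NP lungs, 2.09, 3.22, 7.03 and 4.27 TPM in vehicle lungs, and 3.78, 7.12, 4.74 and 6.43 TPM at day 14. In TPM vehicle replicates 3 and 4 lay within the day 14 range, and the NP lungs lay below it. In CPM Espl1 stood at 6.44, 6.15, 4.53 and 6.99 CPM in NP lungs, 6.63, 8.65, 7.45 and 6.63 CPM in vehicle lungs, and 12.4, 11, 13.3 and 11.4 CPM at day 14, and both day 21 groups lay below day 14. On counts its log2 fold change was −1.0 ± 0.13 in NP lungs and −0.71 ± 0.13 in vehicle lungs (adjusted p = 0.000758 and 0.0053). With limma on log2(TPM + 1) it was −0.93 in NP lungs and −0.40 in vehicle lungs and did not pass (adjusted p = 0.0513 and 0.417). Pttg1 had 78.3, 72.8, 71 and 77.9 TPM in NP lungs, 82.4, 67.1, 74.4 and 67 TPM in vehicle lungs, and 55.9, 67.4, 54.4 and 58.8 TPM at day 14. It had by far the highest level of the 48, and day 14 replicate 2 lay within the range of the vehicle lungs. In TPM Pttg1 was higher in every NP lung than in every day 14 lung, while in CPM these groups overlapped. Its log2 fold change was 0.29 ± 0.09 in NP lungs and 0.26 ± 0.09 in vehicle lungs (adjusted p = 0.0519 and 0.0846), neither past the threshold. Its sign was positive under every alternative tried, and in NP lungs the call was gained with DESeq2 (0.30, adjusted p = 0.0212), with RLE factors (0.29, adjusted p = 0.0436) and with limma on log2(TPM + 1) (0.34, adjusted p = 0.0249). Without day 14 replicate 2 it was 0.39 in NP lungs and 0.36 in vehicle lungs (adjusted p = 0.00958 and 0.0167).

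Chromosome and proliferation markers fell in 3 of 3 in both comparisons, with and without NP replicate 3. Mki67, the gene of the Ki-67 antigen, had 7.8, 7.74, 3.33 and 6.79 TPM in NP lungs, 5.12, 8.77, 6.91 and 6.79 TPM in vehicle lungs, and 14.8, 15.1, 15.1 and 15.7 TPM at day 14. Its day 14 lungs were nearly level. Mki67 fell by 1.25 (SE 0.23) in NP lungs and by 1.13 (SE 0.23) in vehicle lungs on the log2 scale (adjusted p = 0.00591 and 0.0129). Top2a, which untangles sister chromatids, had 12.3, 12.6, 5.06 and 10.2 TPM in NP lungs, 8.17, 15.8, 11 and 11 TPM in vehicle lungs, and 27.1, 26.3, 28.3 and 26.7 TPM at day 14. NP replicate 3 was below every other lung. Against day 14 its log2 fold change was −1.42 ± 0.24 in NP lungs and −1.24 ± 0.24 in vehicle lungs (adjusted p = 0.00431 and 0.0108). Pimreg had 3.21, 3.05, 0.94 and 2.68 TPM in NP lungs, 1.97, 4.76, 3.07 and 2.21 TPM in vehicle lungs, and 7.36, 9.66, 8.34 and 8.78 TPM at day 14. Vehicle replicate 2 was again the highest of its group. The log2 fold change of Pimreg from day 14 was −1.71 in NP lungs and −1.46 in vehicle lungs (SE 0.31 and 0.30; adjusted p = 0.00419 and 0.0112).

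**Figure D3:**
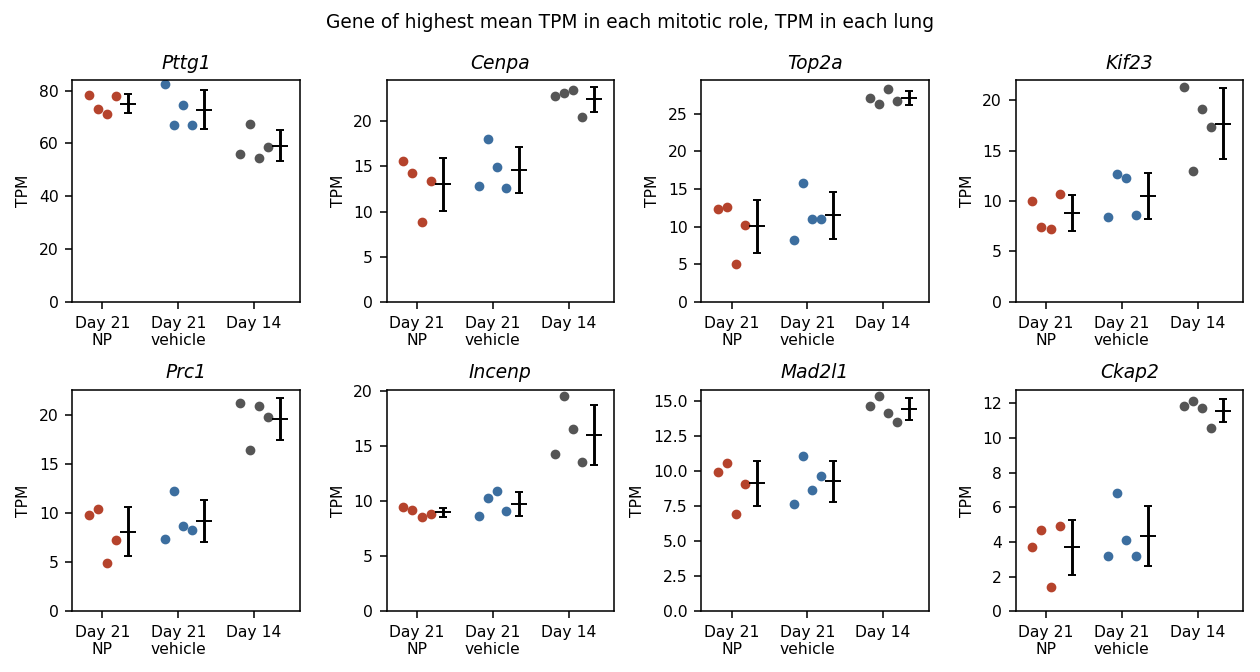
TPM in each lung of the gene of highest mean level in each of the 8 roles; points are single lungs of the day 21 NP, day 21 vehicle and day 14 groups (left to right), and bars are the mean ± SD of 4 lungs. Pttg1 lies at 71.0 to 78.3 TPM in NP lungs and at 54.4 to 67.4 TPM at day 14, while Top2a lies at 5.06 to 12.6 TPM in NP lungs and at 26.3 to 28.3 TPM at day 14.

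Levels per transcript length put Pttg1 first in all 3 groups, at 75.0 ± 3.64 TPM in NP lungs, 72.7 ± 7.33 TPM in vehicle lungs and 59.1 ± 5.82 TPM at day 14. Cdk1 was second at day 14 (36.7 ± 5.89 TPM) and ranked 3 in NP lungs (11.7 ± 3.97 TPM) and vehicle lungs (13.2 ± 5.96 TPM), behind Cenpa (13 ± 2.94 and 14.6 ± 2.53 TPM), which was sixth at day 14 (22.4 ± 1.36 TPM). Below the top the levels lay close together. Of the 47 pairs of neighbours in the order, 45 in NP lungs, 46 in vehicle lungs and 43 at day 14 differed by less than the larger of their SDs. These SDs are between lungs, while both genes of a pair were measured in the same lungs, so they do not settle the order of a pair. Cenpa, for one, was above Cdk1 in every NP lung but not in every vehicle lung.

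NP and vehicle lungs at day 21 were not told apart by any of the 48 genes. edgeR's quasi-likelihood test called 0 higher and 0 lower (0% of all genes tested, with 431 higher, 2.41%, and 331 lower, 1.85%, at an unadjusted p under 0.05). The estimates leaned to lower values in NP lungs, negative for 45 and positive for 3 (Spc25 0.08, Aurka 0.08 and Pttg1 0.03), with a median log2 fold change of −0.18 and a lowest value of −0.45 (Kif22). Kif22 and Kif15 were the 2 with an unadjusted p under 0.05, 2 of 48 where 4.25% of all genes tested had one. Kif22 differed by −0.45 (95% interval −0.85 to −0.06, unadjusted p = 0.0282) and Kif15 by −0.34 (−0.63 to −0.05, unadjusted p = 0.0265), both with an adjusted p of 0.999. The NP and vehicle lungs overlapped in CPM for all 48 genes, while 1.8% of all genes tested lay wholly higher and 1.75% wholly lower in NP lungs.

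The lean rested on a few lungs. Without NP replicate 3 it was gone, with 26 genes negative and 22 positive, a median of −0.01, a range of −0.28 to 0.22 and 0 genes at an unadjusted p under 0.05. Without vehicle replicate 2, 35 were negative and 13 positive, with a median of −0.05. Without vehicle replicate 1, the lowest vehicle lung, 47 were negative, with a median of −0.31 and 6 genes at an unadjusted p under 0.05. The 95% intervals had a median half-width of 0.47 on the log2 scale and spanned −1.13 to 0.56 over the 48 genes. The half-width ran from 0.20 for Incenp and Pttg1 to 0.76 for Cdc25c, so that the size of difference left within the interval depends on the gene.

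**Figure D4:**
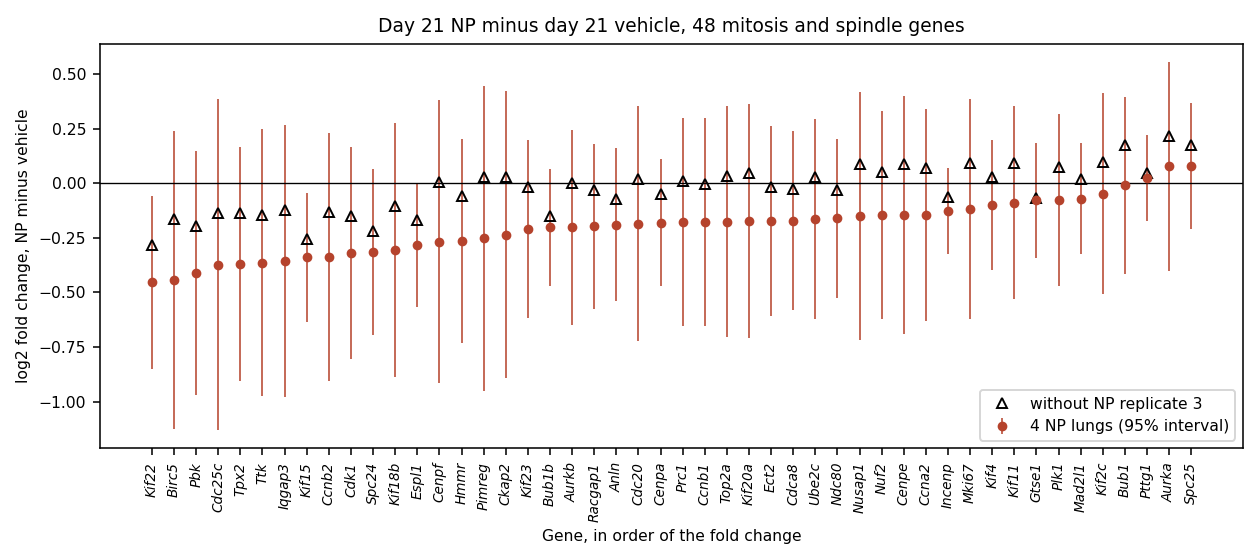
Log2 fold change of day 21 NP minus day 21 vehicle lungs for the 48 genes in order of size, from edgeR's quasi-likelihood fit; filled points are estimates from 4 NP lungs with 95% confidence intervals, and open triangles are estimates without NP replicate 3. With all lungs the median is −0.18, and without NP replicate 3 it is −0.01.

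Other lists of the division cycle fell with the 48 genes, to differing extents. Of 68 further mitosis genes, 53 fell and 0 rose in NP lungs (median −0.99) and 50 fell and 0 rose in vehicle lungs (median −0.89), beside the 8.56% and 6.51% of all genes tested that fell. Without NP replicate 3, 48 fell in NP lungs (median −0.84). Among them Ckap2l, a spindle protein, changed by −1.32 in NP lungs and −1.30 in vehicle lungs, and Tacc3, which strengthens spindle fibres, by −1.15 and −0.92. DNA replication genes fell in 37 of 40 in NP lungs (median −0.76) and 35 of 40 in vehicle lungs (median −0.70), among them the helicase subunit Mcm5 by 1.3 and 1.04 and the sliding clamp Pcna by 0.51 and 0.48. Without NP replicate 3, 36 of 40 fell in NP lungs (median −0.71). Condensin subunits, which compact chromosomes, fell in 6 of 8 in both, with medians of −0.69 in NP lungs (−0.54 without replicate 3) and −0.64 in vehicle lungs. The 48 genes had the lowest median of these lists in both comparisons. Members and lists were chosen with earlier results of these data known, so this rank only describes the lists as chosen. The difference between the lists was not tested.

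Counts were smaller for parts of the same machinery that cells also use outside mitosis. The list of the anaphase-promoting complex core also holds Ube2s, which extends ubiquitin chains and is not a core subunit. Of its 15 genes, 2 fell in NP lungs (median −0.02) and 1 in vehicle lungs (median −0.03). These shares are near the 8.56% and 6.51% of all genes tested that fell, and the NP counts were the same without replicate 3. The gene lower in both was Ube2s (−0.36 in NP lungs and −0.34 in vehicle lungs), and the other in NP lungs was Cdc16 (−0.18). The list of cohesin and its loaders also holds other factors that act on cohesin, Esco1 and Esco2 among them. It had 1 of 11 lower and 3 higher in NP lungs (median 0.11) and 1 of 11 lower and 0 higher in vehicle lungs (median 0.05). Of all genes tested 8.56% were lower and 6.16% higher in NP lungs, and 6.51% lower and 3.79% higher in vehicle lungs, and the NP counts were again the same without replicate 3. The one that fell was Esco2, which acetylates cohesin in S phase (−1.21 in NP lungs and −1.08 in vehicle lungs). The 3 that rose in NP lungs were Esco1 (0.37), Stag2 (0.34) and Stag1 (0.26).

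Regulators fell in part. Of 24 transcriptional regulators of mitotic genes, 8 fell and 1 rose in NP lungs (median −0.11), and 9 fell and 0 rose in vehicle lungs (median −0.14). The shares of all genes tested were 8.56% lower and 6.16% higher in NP lungs, and 6.51% lower and 3.79% higher in vehicle lungs. Without NP replicate 3, 8 fell and 1 rose in NP lungs. Foxm1, the factor of late cell cycle genes, averaged 3.99 ± 1.14 TPM in NP lungs, 4.33 ± 0.547 TPM in vehicle lungs and 8.09 ± 1.02 TPM at day 14 (SD, n = 4 each), a log2 fold change of −1.24 in NP lungs and −1.09 in vehicle lungs (adjusted p = 0.00166 and 0.00435). Mybl2, which makes B-Myb, changed by −1.04 in both (adjusted p = 0.00055 and 0.00151), E2f1 by −0.74 and −0.68, and E2f7 by −1.21 and −1.06 in the same order. Among 19 cyclins, kinases and inhibitors of cycle entry, 8 fell (7 without replicate 3) and 1 rose in NP lungs, and 6 fell and 1 rose in vehicle lungs, where the 1 that rose is close to the share of all genes. The one that rose was Cdkn1b, the inhibitor p27 (0.41 in NP lungs and 0.41 in vehicle lungs). Cdkn1a, the inhibitor p21, fell by 0.59 in NP lungs and 0.71 in vehicle lungs (adjusted p = 0.00993 and 0.00618). Ccnd1, cyclin D1, differed by −0.35 in NP lungs and −0.21 in vehicle lungs (adjusted p = 0.0455 and 0.243). No gene of these lists was called between NP and vehicle lungs.

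**Figure D5:**
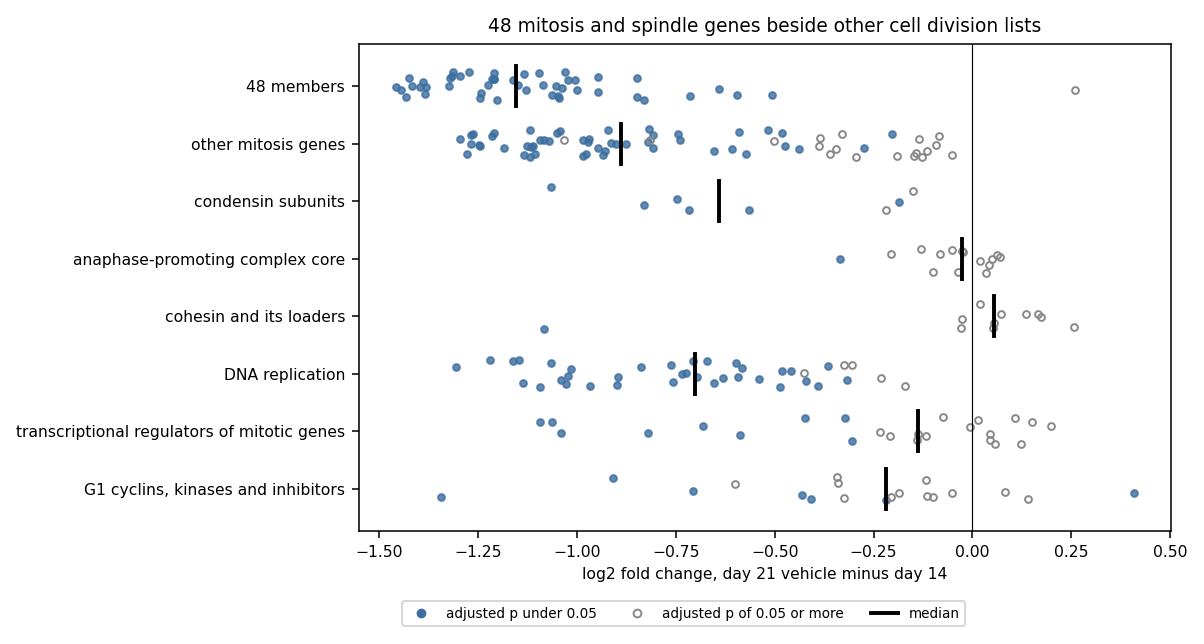
Log2 fold change of day 21 vehicle minus day 14 for each gene of the 48 and of 7 other lists of cell division; filled points passed an adjusted p under 0.05 in edgeR's quasi-likelihood test, open points did not, and black bars are medians. The 48 genes lie around a median of −1.16, DNA replication genes around −0.70, and the anaphase-promoting complex core and cohesin around −0.03 and 0.05.

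Markers of several cell types also differed between day 14 and day 21, some lower and some higher. Beside the counts stand the shares of all genes tested, 8.56% lower and 6.16% higher in NP lungs, and 6.51% lower and 3.79% higher in vehicle lungs. Summed scar fibroblast markers (10 genes) stood at 1593 to 2322 TPM in NP lungs, 1886 to 2783 TPM in vehicle lungs and 3259 to 4282 TPM at day 14, with 7 genes lower in NP lungs, with or without replicate 3, and 6 in vehicle lungs. Spp1, which makes osteopontin, is on this list and on that of monocyte-derived macrophages, at 359 to 791 TPM in NP lungs, 489 to 888 TPM in vehicle lungs and 1143 to 1667 TPM at day 14. Without it the scar fibroblast sum was 1234 to 1530 TPM in NP lungs, 1397 to 1895 TPM in vehicle lungs and 2116 to 2620 TPM at day 14, and the day 21 lungs were again all below day 14. Markers of transitional epithelium (10 genes), the keratin 8 state between alveolar type 2 and type 1 cells, stood at 1227 to 1563, 1250 to 1500 and 1809 to 2055 TPM for NP lungs, vehicle lungs and day 14, with 8 genes lower in NP lungs (9 without replicate 3, whose 1563 TPM were the highest of the NP lungs) and 9 in vehicle lungs. Monocyte-derived macrophage markers (13 genes) stood at 2942 to 5688 TPM in NP lungs, 3025 to 4195 TPM in vehicle lungs and 5257 to 6423 TPM at day 14, with 4 genes lower in NP lungs (9 without replicate 3) and 7 in vehicle lungs. The 5688 TPM were those of NP replicate 3, and the other NP lungs stood at 2942 to 4121 TPM. Without Spp1 the sum was 2583 to 4991 TPM in NP lungs, 2536 to 3307 TPM in vehicle lungs and 3930 to 4756 TPM at day 14. Alveolar fibroblast markers (8 genes) went the other way, at 3115 to 3668 TPM in NP lungs, 2619 to 3720 TPM in vehicle lungs and 2127 to 2621 TPM at day 14, with 3 genes higher in NP lungs (4 without replicate 3) and 3 in vehicle lungs. Alveolar type 2 markers (10 genes) had 2 higher in NP lungs (3 without replicate 3) and 3 in vehicle lungs, and natural killer cell markers (7 genes) had 2 higher in NP lungs (4 without replicate 3) and 0 in vehicle lungs. Endothelial markers (12 genes) had 1 higher in NP lungs, near the share of all genes, with 4 higher without replicate 3, and 0 called in vehicle lungs. No marker list was at 0. The part of these cell types in the fall of the mitosis genes was not tested, and whole-lung RNA does not show which cells the mitotic RNA came from.

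Counting limits touch some of the 48. Exons of 11 of them share bases with a gene on the opposite strand. The strand setting of the counting is not given in the sources used here, so it is not known whether reads there were told apart. The largest overlap was 29.3% of the exonic bases of Kif20a with Cdc23 (35.3 TPM on average), and Kif4 shares 15.1% of its exonic bases with Pdzd11 (34.5 TPM), which is far above the level of Kif4 itself. Ube2c shares 22.8% with Tnnc2, at only 0.365 TPM. Cdc20 shares 2.84% of its exonic bases with Elovl1, at 702 TPM. Ccnb2 has an annotated pseudogene copy, Ccnb2-ps, at 2.29 TPM, and its values are less certain for that reason.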

How the data were processed

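Per the labels' protocols, paired-end reads of 151 bp came from 12 whole mouse lungs, 4 per group. Tools listed in the submitters' processing notes are STAR 2.7.8a and RSEM 1.3.3 on GRCm38, together with cutadapt 4.8, MultiQC 1.20 and FastQC 0.11.8. The expected counts per gene were deposited by the authors as whole numbers, and the authors' TPM table gives levels per transcript length with one total per library. Members and lists were chosen with earlier results of these data known. Values in every lung are given, in each role, for the 2 genes of highest mean TPM and those of smallest p between NP and vehicle lungs and between vehicle lungs and day 14. From other lists at most 4 genes of smallest p in vehicle lungs against day 14 were eligible, plus Foxm1, Mybl2, Cdkn1a and Ccnd1. The expected counts were tested with edgeR 4.0.16 in R 4.3.3: filterByExpr (minimum count 10, minimum total 15), TMM factors, 1 fit over the 3 groups of 12 libraries with robust glmQLFit, and Benjamini-Hochberg adjustment over 17909 genes at 0.05. The fit was tested on simulated data. Levels are TPM, and groups were compared for overlap in CPM. Alternatives were RLE and upper-quartile factors, other filters, DESeq2 1.42.0, limma 3.58.1 on log2(TPM + 1) and log2(TPM + 0.1), 2-group fits, a replicate block and leaving out each library. A level of 0 would allow up to 3 counts, 0.103 to 0.125 CPM in NP lungs, 0.0825 to 0.106 CPM in vehicle lungs and 0.0719 to 0.113 CPM at day 14, for counting error only. Replicates are separate mice per the labels, and replicate pairs differed by more than counting noise (chi-square per degree of freedom 8.17 to 33.7). Motifs were searched in RefSeq windows of GRCm38.p6. Windows of 9 members were not used here.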

Additional observations from a re-analysis of the deposited data

Results flagged for a closer look

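Dixon's ratio, the gap of the highest or lowest lung to its neighbour over the range of its group, was above the 95% limit of 0.829 for 4 of 84 groups tested, over 28 results. The 84 groups are not independent, as the genes moved together over the lungs and the sum and score are made of the same genes. A chance share of about 1 in 20 therefore cannot say whether chance gave these 4 values. Of these, 3 were low values of NP replicate 3: Racgap1 at 4.84 TPM (ratio 0.852), Ube2c at 4.75 TPM (ratio 0.886) and the score over the 48 genes at −1.2 (ratio 0.843). The other was Ube2c in day 14 replicate 2, at 28.3 TPM (ratio 0.900), the highest of its group. NP replicate 3 also had the highest neutrophil markers, as given above, and their part in its low values was not tested.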

How the results depend on the processing

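The fall of the mitosis and spindle genes kept its direction under every alternative tried. Over the alternatives other than leaving out a library, 31 to 47 of the 48 genes were called lower in vehicle lungs and 44 to 47 in NP lungs. The lowest count in vehicle lungs, 31, came from limma on unfiltered log2(TPM + 1), which tests more genes. Without any filter on counts 42 were called lower in vehicle lungs. Leaving out each library gave 38 to 47 lower and 0 to 1 higher in vehicle lungs (median −1.30 to −1.03), 47 to 47 lower and 0 to 1 higher in NP lungs (median −1.47 to −1.18), and 0 to 0 between NP and vehicle lungs (median −0.31 to −0.01). In vehicle lungs 38 genes were called in all 12 of these fits, and the 9 called in some were Kif23, Cenpa, Cenpe, Cenpf, Ttk, Birc5, Nusap1, Ccnb2 and Cdc25c, with highest adjusted p of 0.0527 to 0.115 (edgeR). The calls fell to 38 without vehicle replicate 1, 40 without vehicle replicate 3, 41, 44 and 42 without day 14 replicate 1, 2 or 3, 43 without vehicle replicate 4 and 46 without NP replicate 1.

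Pttg1 was the 1 gene called higher, in vehicle lungs with DESeq2 and without day 14 replicate 2. In NP lungs it was called with RLE factors, a filter of 1 CPM, DESeq2 and limma at either pseudocount, and without NP replicate 3, vehicle replicate 1 or day 14 replicate 2. Values of the genes given in every lung lost a call 36 times and gained one 10 times under an alternative. No value with a call in either fit reversed its sign, and sign changes without a call were not counted as reversals. Such changes occurred between NP and vehicle lungs, where none of these genes was called. Top2a, for one, ran there from −0.32 to 0.03 over the fits that left out a library.

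Counts over all genes moved more, and the cause was not tested. Between NP and vehicle lungs DESeq2 called 17 higher and 2 lower, and limma on log2(TPM + 0.1) called 1 lower. Vehicle lungs against day 14 gave 1125 higher with DESeq2, 293 higher and 652 lower with limma on log2(TPM + 1), 292 and 620 on log2(TPM + 0.1), 72 and 309 unfiltered, and 888 higher and 934 lower with upper-quartile factors, beside 679 and 1166. NP lungs against day 14 gave 702 higher and 970 lower from a fit of only these groups, 523 and 929 with limma on log2(TPM + 1), 531 and 929 on log2(TPM + 0.1), and 218 and 606 unfiltered, beside 1103 and 1533. Leaving out a library gave 212 to 897 higher and 492 to 1265 lower in vehicle lungs, and 495 to 1358 higher and 837 to 1594 lower in NP lungs. The counts moved by over 1.5 times without vehicle replicate 1 (252 and 492) or 3 (311 and 555) and day 14 replicate 1 (324 and 688) or 3 (212 and 507) in vehicle lungs. They did so in NP lungs without NP replicate 2 (624 and 1001) or 4 (547 and 837) and day 14 replicate 1 (573 and 997) or 3 (495 and 868).

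Mouse numbers were not taken to pair the lungs: deviations of same-numbered lungs correlated at −0.0744 to 0.148 over 12 pairs. With the mouse number as a replicate block, 47 of the 48 genes were lower in vehicle lungs (622 higher and 1051 lower over all genes) and 47 in NP lungs (1025 and 1394), and 0 differed between NP and vehicle lungs.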
